A study of Lolium multiflorum with 4 samples.

Results

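The contigs described here come from Lolium multiflorum (Italian ryegrass, a forage grass) and were chosen by their levels: at least 10 FPKM in each cadmium-treated library, and a listed 0 in each untreated one. FPKM counts the fragments of a contig relative to its length and to all fragments mapped in that library. Of 111761 contigs in the table, 122 met these 4 conditions, a share of 0.109%. They are called switched-on contigs below, which is a name for this rule and says nothing of how the transcripts came to be present. Because the measured levels chose the members, their absence at 0 h and their presence at 24 h are descriptions and not findings.

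RNA was sequenced from seedlings of LmHC, labelled High Cadmium, and LmLC, labelled Low Cadmium, which are read here as 2 seed lines although the labels also list these words as a treatment. LmHC and LmLC seedlings taken after 24 h in 300 µM cadmium chloride are set against LmHC and LmLC seedlings taken at 0 h. All seedlings were started on agar and then grown in Hoagland nutrient solution, and each of the 4 groups was 1 library. The labels name neither the tissue nor the number of seedlings in a library, and they do not say whether high and low refer to uptake, accumulation or tolerance.

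Cadmium is a toxic metal with no known role in grasses, and it enters root cells largely through carriers for iron, zinc, manganese and calcium. Plant cells bind it with phytochelatins, peptides made from glutathione, and with metallothioneins, and pump it into the vacuole. Exposure is also known to bring on genes of sulfur assimilation, antioxidant defence, heat shock and detoxification by glutathione transferases. The deposited table pairs no contig with a gene name and holds no sequence, so no switched-on contig can be placed among these genes here and no function is given to any of them.

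A contig is a transcript put together from the reads themselves, without a genome. The assembly grouped 61184 contigs into 15237 clusters, whose contigs may be alleles, splice forms or close gene copies, and left 50577 contigs on their own. Fragments that match several contigs of a cluster are divided among them by estimation. A contig listed at 0 can therefore have matching fragments that were given to another contig of its cluster, and levels within a cluster depend on each other. The table is rounded to 2 decimals, and its smallest value above 0 is 0.01 FPKM.

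With 1 library per group there were no residual degrees of freedom, so values are given without tests or errors. The effects of cadmium and of elapsed time cannot be told apart, as 0 untreated libraries of the later time were analysed. In whole tissue, more cells of a kind and more RNA per cell cannot be told apart either. Column totals ranged from 782476 to 795368 FPKM. The number of fragments per library is unknown, but low values gave the 24 h library a depth of 0.956 relative to 0 h in LmHC and 0.92 in LmLC, so depth at 24 h was estimated as slightly lower.

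At 24 h, most switched-on contigs were at moderate levels and a few were abundant. In LmHC at 24 h they ranged from 10.17 to 237.9 FPKM with a median of 22.8 FPKM, and in LmLC at 24 h from 10.04 to 187.91 FPKM with a median of 21.4 FPKM. The medians lay near those of all 12122 contigs with at least 10 FPKM in both 24 h libraries, which were 24.2 FPKM in LmHC and 23.9 FPKM in LmLC. At least 20 FPKM was reached in both lines by 56 of the 122, at least 50 FPKM by 11, and at least 100 FPKM by 2. Summed, they held 3809 FPKM in LmHC at 24 h and 3657 FPKM in LmLC at 24 h, or 0.487% and 0.46% of the library. The 10 most abundant made up 29.0% of that sum in LmHC and 27.5% in LmLC.

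**Figure D1:**
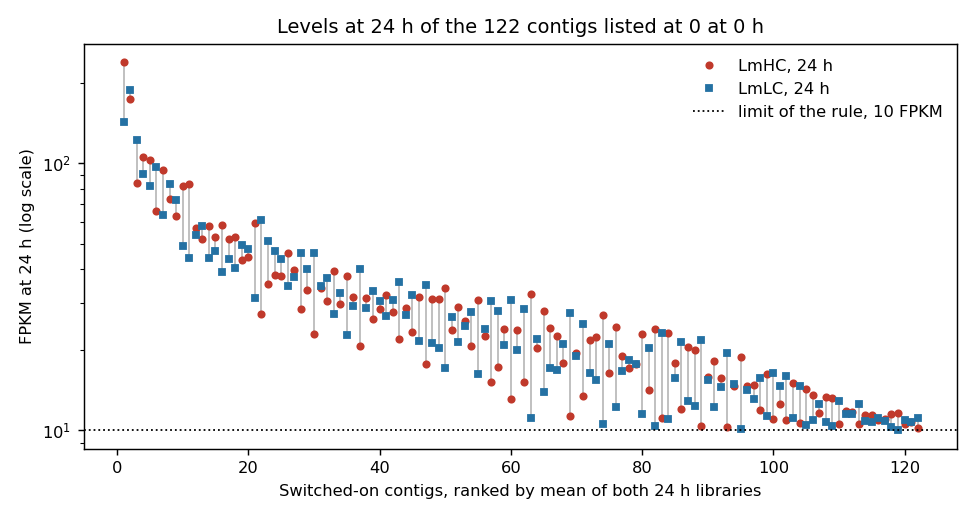
FPKM at 24 h (log scale) of the 122 switched-on contigs, ranked from left to right by the mean of both 24 h libraries, with LmHC as circles, LmLC as squares and a grey line joining the lines' values of a contig. Only the first 2 contigs lie above 100 FPKM in both lines, and the 0 h values, all listed at 0, are not drawn.

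The most abundant was CL1203.Contig2_All, with 237.9 FPKM in LmHC at 24 h and 142.51 FPKM in LmLC at 24 h. Unigene20306_All, which belongs to no cluster, followed with 174.3 FPKM in LmHC and 187.91 FPKM in LmLC at 24 h. Next came CL7092.Contig5_All, with 84.25 FPKM in LmHC and 122.27 FPKM in LmLC at 24 h. All 3 were listed at 0 in both lines at 0 h, and the line with the higher level was LmHC for the first and LmLC for the next 2.

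They were followed by CL495.Contig8_All, with 105.01 FPKM in LmHC and 90.84 FPKM in LmLC at 24 h, and CL495.Contig14_All, with 102.56 and 81.98 FPKM in the same libraries. Both belong to the cluster with the most switched-on contigs, described below. CL4030.Contig14_All had 66.14 FPKM in LmHC and 96.81 FPKM in LmLC at 24 h. Unigene8764_All had 94.16 FPKM in LmHC and 64.04 FPKM in LmLC, and Unigene34485_All had 73.29 FPKM in LmHC and 83.2 FPKM in LmLC. Among these 8 contigs, LmHC held the higher level in 4 and LmLC in the other 4, as the ranked plot of levels shows.

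The limits of the rule cut through a continuous range. Just inside the level limit lay CL1391.Contig2_All, with 11.6 FPKM in LmHC and 10.04 FPKM in LmLC at 24 h, CL3835.Contig7_All, with 18.74 and 10.15 FPKM, and Unigene15346_All, with 10.17 and 11.09 FPKM. Just outside lay CL329.Contig32_All, with 17.16 FPKM in LmHC and 9.99 FPKM in LmLC, CL80.Contig34_All, with 9.96 and 9.78 FPKM, and Unigene31608_All, with 9.77 and 13.81 FPKM. The lower 24 h values of these 6 contigs lay between 9.77 and 10.17 FPKM.

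The limit at 0 h was as gradual. Beside the 122, a further 109 contigs with at least 10 FPKM in both 24 h libraries had a 0 h value above 0 in a line but at most 0.1 FPKM in both. Their median was 22.1 FPKM in LmHC and 19.9 FPKM in LmLC at 24 h, close to that of the switched-on contigs. A listed 0 in 1 line alone was also frequent. Of the contigs at or above 10 FPKM in both 24 h libraries, 114 were listed at 0 in LmHC at 0 h and above 0 in LmLC at 0 h, where their median was 0.16 FPKM, and 68 were listed at 0 in LmLC only, with a median of 0.125 FPKM in LmHC at 0 h. Only 3 contigs of the first kind and 1 of the second reached 1 FPKM in the other line at 0 h.

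As the level limit was raised, the number of contigs that met it from a listed 0 declined faster than the number that met it at all. Those from 0 made up 1.01% of the contigs at or above 10 FPKM in both 24 h libraries, 0.876% at 20 FPKM or more, 0.469% at 50 FPKM or more and 0.206% at 100 FPKM or more. The reverse pattern, with at least 10 FPKM in each 0 h library and a listed 0 in each 24 h library, was met by 1 contig. This was Unigene31524_All, which had 42.44 FPKM in LmHC and 23.54 FPKM in LmLC at 0 h. Both directions were drawn from similar pools, with 12122 contigs at or above 10 FPKM in both 24 h libraries and 13168 in both 0 h libraries.

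The balance between the lines was then described by the ratio of LmHC over LmLC at 24 h, as log2 of (FPKM + 1) in LmHC over (FPKM + 1) in LmLC. The rule requires 10 FPKM in both lines, which keeps out any contig switched on in a single line and limits how far the ratio of a low contig can go. Within that limit, 65 of the 122 contigs were higher in LmHC and 57 were lower in LmHC, and the median log2 ratio was 0.04. Ratios ranged from -1.21 to 1.46 with a standard deviation across contigs of 0.55, against 0.43 across all 12122 contigs with at least 10 FPKM in both 24 h libraries and 0.42 across the 109 contigs that were barely above 0 at 0 h. Within 1.5-fold lay 88 of the 122 (72.1%), against 84.9% of the 12122. The lines' levels at 24 h had a Spearman's rho of 0.73 across the 122 contigs, which share libraries and clusters and are not independent.

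At least 2-fold apart were 7 of the 122, or 5.74%, where the share among all contigs with at least 10 FPKM in both 24 h libraries was 3.26%. Higher in LmHC were 4, against a background of 1.35%, and lower in LmHC were 3, against a background of 1.91%. Such small counts are near the background and change with the setting. With a pseudocount of 0.1, 4 of the 122 were higher and 6 lower. Median-of-ratios scaling gave 140 members, of which 8 were higher and 3 lower in LmHC. Under that scaling the median log2 ratio of all contigs with at least 10 FPKM in both 24 h libraries was 0.07, against 0.01 as deposited. All 7 had a mean between 15 and 50 FPKM. Under a mean of 15 FPKM no contig can be 2-fold apart, as both levels are at least 10 FPKM. None of the 14 contigs with a mean of 50 FPKM or more was 2-fold apart. That is near the share among all 2696 contigs with such a mean and at least 10 FPKM in both 24 h libraries, which was 2.71%.

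The 4 contigs at least 2-fold higher in LmHC were all stand-alone. Unigene47868_All had 32.46 FPKM in LmHC and 11.16 FPKM in LmLC at 24 h, a log2 ratio of 1.46. Unigene2059_All had 27.08 FPKM in LmHC and 10.61 FPKM in LmLC, a log2 ratio of 1.27. The other 2, Unigene14824_All and Unigene47692_All, had 23.89 and 23.21 FPKM in LmHC and 10.41 and 10.99 FPKM in LmLC. In each of the 4, the LmLC level sat just above the limit of the rule, so a slightly lower LmLC level would have kept them out.

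The 3 contigs at least 2-fold lower in LmHC were all in clusters. CL495.Contig7_All had 11.3 FPKM in LmHC and 27.43 FPKM in LmLC at 24 h, a log2 ratio of -1.21, and CL3835.Contig2_All had 13.11 FPKM in LmHC and 30.82 FPKM in LmLC, a log2 ratio of -1.17. CL14765.Contig3_All had 27.34 FPKM in LmHC and 61.37 FPKM in LmLC, a log2 ratio of -1.14. The next, CL329.Contig12_All, had 10.41 FPKM in LmHC and 21.73 FPKM in LmLC, a log2 ratio of -0.99 that stays just within 2-fold. The ratio after that, also -0.99, was that of a stand-alone contig.

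**Figure D2:**
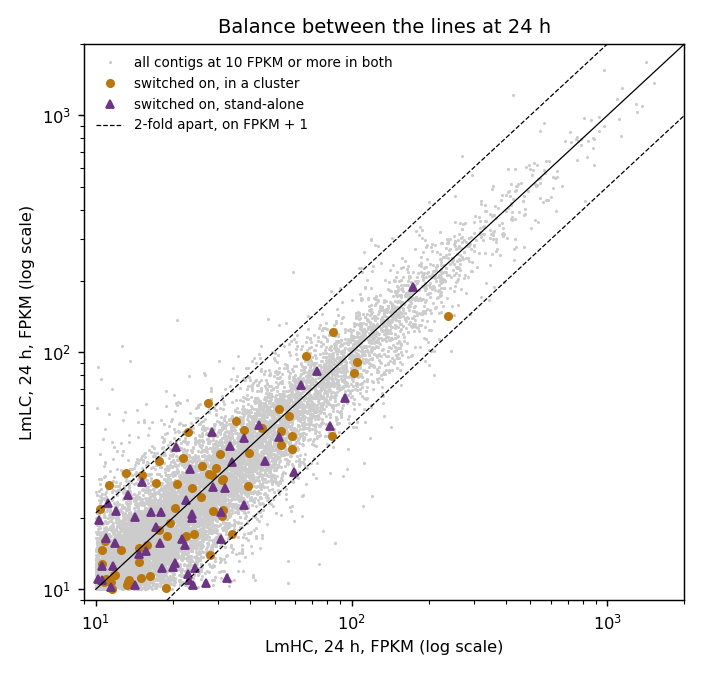
FPKM at 24 h in LmHC (x axis) and LmLC (y axis), both on log scales, with all 12122 contigs at 10 FPKM or more in both as grey points, the 68 switched-on contigs of clusters as circles and the 54 stand-alone ones as triangles. The solid line marks equal levels and the dashed lines 2-fold on FPKM + 1. The 4 triangles beyond the lower dashed line are the contigs higher in LmHC, and 3 circles lie beyond the upper one.

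Contigs that the rule kept out for lack of a second line were counted next. Listed at 0 in both lines at 0 h, 73 contigs reached 10 FPKM at 24 h in LmHC but not in LmLC, and 108 reached it in LmLC but not in LmHC. Where the other line lay under 1 FPKM at 24 h, the numbers were 6 for LmHC and 61 for LmLC. The whole table, whatever the 0 h level, leaned the same way: 2013 contigs reached 10 FPKM at 24 h in LmHC alone and 2399 in LmLC alone, and with the other line under 1 FPKM these numbers were 10 and 396. These contigs are no members, and leaving them out bears on the balance of the lines among the 122.

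Of the 122 switched-on contigs, 68 belonged to 43 clusters and 54 stood alone. The stand-alone share was 44.3%, against 28.0% of all contigs with at least 10 FPKM in both 24 h libraries, 30.3% of the 109 contigs barely above 0 at 0 h and 45.3% of the whole table. In LmHC at 24 h the median level was 22.8 FPKM for contigs of clusters and 22.7 FPKM for stand-alone ones, and in LmLC at 24 h it was 25.6 and 20.5 FPKM. The ratio of the lines had a standard deviation of 0.51 across contigs of clusters and 0.60 across stand-alone ones. The 43 clusters were large, with a median of 9 contigs and a range of 2 to 27, against a median of 3 in all clusters. Large size was not particular to a listed 0, as the 57 clusters of the 109 contigs barely above 0 had a median of 8. For contigs that met the same 24 h limit but passed 10 FPKM in a line at 0 h, the median was 4.

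The other contigs of these clusters, 354 in all and called partners here, show whether a switched-on contig appeared in a cluster that was already present at 0 h. In 22 of 43 clusters (51.2%), the partners' sum reached 1 FPKM in each 0 h library. For a background, clusters of 2 or more contigs that hold a contig of at least 10 FPKM in both 24 h libraries were taken, and only the highest such contig was left out of each. The remaining contigs then reached 1 FPKM in each 0 h library in 87.3% of these 4384 clusters. Treated the same way, with that 1 contig left out in place of all members, 21 of the 43 clusters (48.8%) reached it. Members that stay in these sums are listed at 0 at 0 h by the rule, so this comparison is partly set by the rule. The 109 contigs barely above 0 at 0 h were similar: the other contigs of their 57 clusters reached 1 FPKM in each 0 h library in 27 (47.4%). In 19 of the 43 clusters the partners summed to under 1 FPKM in both lines at 0 h, and in 4 of these they were listed at 0 throughout. In the remaining 2 clusters the lines lay on different sides of 1 FPKM. Across the 43 clusters, the partners' sum had a median of 149 FPKM at 24 h and 1.19 FPKM at 0 h in LmHC, and of 145 FPKM at 24 h and 1.67 FPKM at 0 h in LmLC.

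Cluster by cluster, the partners were almost always higher at 24 h. On log2(FPKM + 1), their sum was at least 2-fold higher at 24 h in both lines in 39 of 43 clusters (90.7%), and in no cluster was it at least 2-fold lower in both. A sum under 1 FPKM at 0 h cannot be 2-fold lower on this scale. Only the 22 clusters whose partners reached 1 FPKM in each 0 h library could thus have been lower in both. With only the highest contig left out, the count of clusters at least 2-fold higher was again 39 of 43, against a background of 29.3% of the 4384 clusters. Only 10 of the 68 members are the highest contig of their cluster. Most of these sums thus still hold members, whose rise the rule fixed, so this comparison is partly set by the rule. A higher sum at 24 h was not particular to a listed 0. Around the 109 contigs barely above 0 at 0 h, the other contigs' sum was 2-fold higher in 53 of 57 clusters (93.0%). The 4 exceptions among the 43 clusters were CL443, CL7497, CL8425 and CL9901. In CL443 the partners summed to 137 FPKM at 24 h and 215 FPKM at 0 h in LmHC, and to 209 FPKM at 24 h and 217 FPKM at 0 h in LmLC. In CL7497 they summed to 58.4 FPKM at 24 h and 45.7 FPKM at 0 h in LmHC, and to 46.1 and 32.1 FPKM in LmLC. CL8425 and CL9901 have a single partner each, and both partners were listed at 0 at 0 h.

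**Figure D3:**
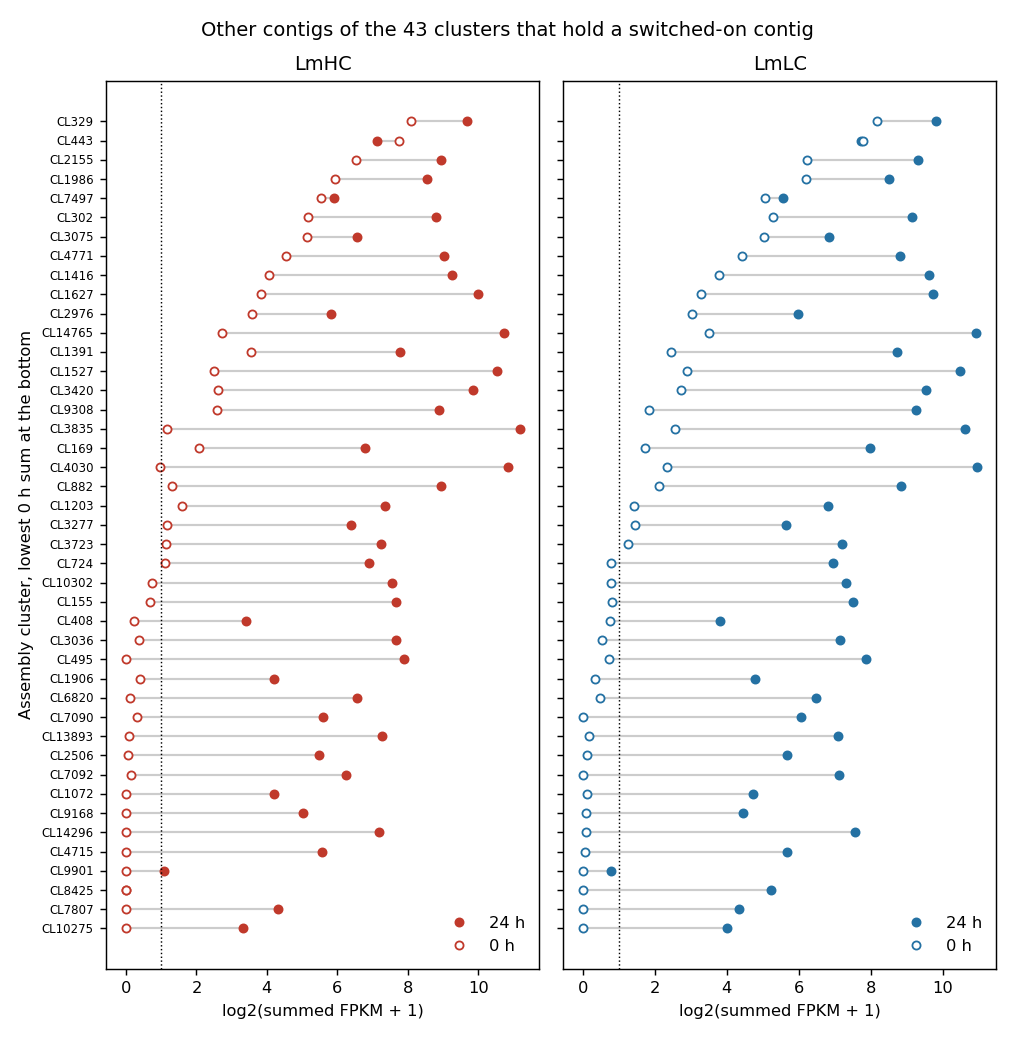
Summed FPKM of the other contigs of each of the 43 clusters, as log2(summed FPKM + 1), with LmHC in the left panel, LmLC in the right panel, 24 h as filled circles and 0 h as open circles; the dotted line marks a sum of 1 FPKM. In 39 clusters the filled circle lies at least 1 unit to the right of the open circle in both panels, and CL443 is the cluster whose filled circle lies left of the open one in both lines.

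Single partners gave the same picture, but a filter on level bears on the count. With a mean of at least 1 FPKM over the 4 libraries, 302 partners remained, of which 258 (85.4%) had at least 2-fold higher levels at 24 h in both lines and 2 (0.662%) at least 2-fold lower. The background among 43000 clustered contigs with that mean was 23.8% higher and 17.5% lower. Median-of-ratios scaling moved that background to 28.2% higher and 8.89% lower, and the partners to 85.4% and 0.28%. At least 8-fold higher in both lines were 145 of the 302, where the background was 3.25%. These backgrounds are unlike the partners in 0 h level, as 31769 of the 43000 contigs had 1 FPKM or more in both 0 h libraries. By contrast, 221 of the 302 partners lay under 1 FPKM in both lines at 0 h and so could pass the filter only through their 24 h levels. On FPKM + 1 these 221 could not be 2-fold lower either, so the lower shares of the partners and of this background cannot be compared. The 8-fold count has no background matched for the 0 h level, so nothing is read from it. Among clustered contigs of that kind, 76.5% were 2-fold higher in any case, against 197 of the 221 partners (89.1%). Without the filter, 266 of the 354 partners (75.1%) were 2-fold higher in both lines.

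Partners already present at 0 h depended less on their 24 h level to be counted. The filter on a mean of at least 1 FPKM over the 4 libraries still applied to them and to their background, so 24 h levels could matter for contigs near 1 FPKM. Of 64 partners at or above 1 FPKM in both 0 h libraries, 45 (70.3%) had at least 2-fold higher levels at 24 h in both lines, 2 were at least 2-fold lower and 17 were neither. The background among the 31769 clustered contigs present at 0 h in the same way was 11.2% higher and 23.7% lower. These 64 partners came from 16 clusters, which are not 64 independent cases. In 10 of the 16 clusters all such partners were higher, and the 2 lower ones were in CL302 and CL7497. CL1986 gave 9 of the 45, and CL443 had 6 such partners, of which 0 were 2-fold apart in both lines.

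Contigs not quite at 0 had partners with similar shares. Contigs with at least 10 FPKM in both 24 h libraries were divided by the higher of their 0 h values, and their partners at or above 1 FPKM in both 0 h libraries were counted. The share at least 2-fold higher was 84.1% of 44 partners around contigs above 0 and up to 0.1 FPKM, 66.9% of 634 for those above 0.1 and up to 1 FPKM, 35.0% of 2763 for those above 1 and up to 10 FPKM, and 17.2% of 6624 for those above 10 FPKM. A cluster can count in several of these classes, and no class was tested against another.

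**Figure D4:**
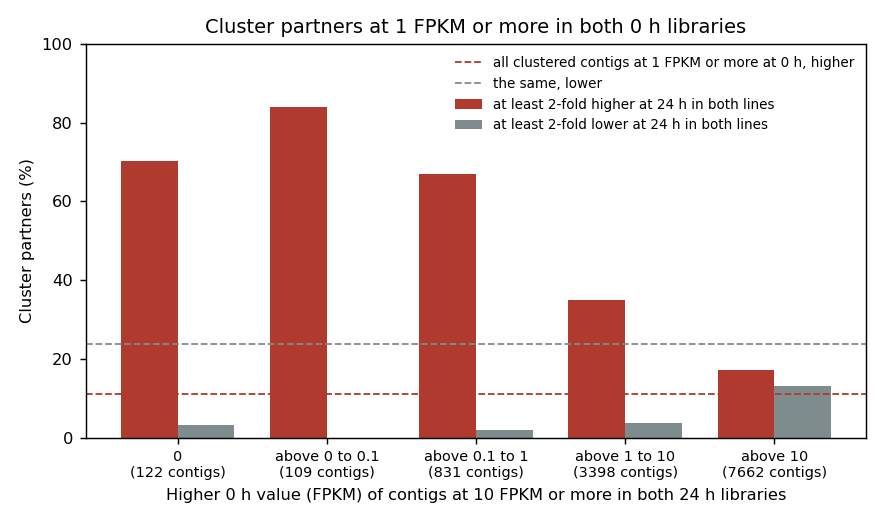
Share (%) of cluster partners at or above 1 FPKM in both 0 h libraries that were at least 2-fold higher (red bars) or lower (grey bars) at 24 h in both lines, by the higher 0 h value of the contig they share a cluster with; the leftmost class holds the switched-on contigs. Dashed lines give the shares among all clustered contigs present at 0 h in the same way and with a mean of at least 1 FPKM over the 4 libraries, 11.2% higher and 23.7% lower. The red bars of the 3 leftmost classes stand between 66.9% and 84.1%, and those of the 2 rightmost at 35.0% and 17.2%.

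Most switched-on contigs were not the leading contig of their cluster, as holds for most contigs of these clusters. At 24 h, 10 of the 68 (14.7%) ranked 1 in their cluster by the mean of the lines, 22 ranked 2 or 3 and 36 ranked 4 or lower. Of all 422 contigs of these clusters, 43 (10.2%) hold rank 1. These shares are not matched for level and cannot be compared. Every member has at least 10 FPKM in both 24 h libraries, against 161 of the 354 partners. The switched-on contigs held a median of 14.8% of the cluster's FPKM at 24 h, with a range from 1.95% to 93.2%. They held over 50% of the cluster in both lines in 7 of 43 clusters. The clusters themselves could be very abundant. Whole clusters, members included, had a median of 203 FPKM in LmHC and 215 FPKM in LmLC at 24 h, and 39 partners in 15 clusters reached 100 FPKM in both 24 h libraries.

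CL3835 and CL4030 show a low-ranking member in an abundant cluster. CL3835 summed to 2346 FPKM at 24 h and 1.26 FPKM at 0 h in LmHC, and to 1616 FPKM at 24 h and 4.88 FPKM at 0 h in LmLC. Its switched-on contigs, CL3835.Contig2_All and CL3835.Contig7_All, held 1.36% of the cluster in LmHC and 2.54% in LmLC at 24 h. CL4030 summed to 1931 FPKM at 24 h and 0.97 FPKM at 0 h in LmHC, and to 2088 FPKM at 24 h and 4.03 FPKM at 0 h in LmLC. In both clusters, nearly all of the level at 24 h was in contigs that were close to 0, but not listed at 0, in at least 1 of the 0 h libraries.

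In CL1203 the member led the cluster. Its only switched-on contig, the most abundant of the 122, held 59.6% of the cluster in LmHC and 56.3% in LmLC at 24 h. The 4 partners summed to 161 FPKM at 24 h and 2.01 FPKM at 0 h in LmHC, and to 110 FPKM at 24 h and 1.67 FPKM at 0 h in LmLC. Of all 43 clusters, CL1203 had the highest ratio toward LmHC at 24 h, a log2 ratio of 0.66 for the whole cluster.

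Several switched-on contigs in 1 cluster were common: 15 clusters held 2 or more, 40 contigs together, and 28 clusters held 1. CL495 held 7 among 16 contigs. As a whole, CL495 was listed at 0 in LmHC at 0 h and had 0.64 FPKM in LmLC at 0 h, and it reached 552 FPKM in LmHC and 549 FPKM in LmLC at 24 h. The lines were thus level for the cluster, with a log2 ratio of 0.01, but not for its contigs. The 7 switched-on contigs had log2 ratios of LmHC over LmLC from -1.21 to 0.32.

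Beside CL495.Contig8_All and CL495.Contig14_All, the cluster's members were CL495.Contig11_All, with 51.79 FPKM in LmHC and 57.89 FPKM in LmLC at 24 h, and CL495.Contig10_All, with 15.12 and 30.47 FPKM. CL495.Contig1_All had 15.87 FPKM in LmHC and 15.39 FPKM in LmLC, and CL495.Contig15_All had 14.8 and 13.06 FPKM. Contig10 and Contig7 leaned toward LmLC and the other 5 were within 1.5-fold. Among the partners, CL495.Contig9_All was the highest of the cluster, with 153.57 FPKM at 24 h and 0 FPKM at 0 h in LmHC, and 111.71 FPKM at 24 h and 0.06 FPKM at 0 h in LmLC, so that 0.06 FPKM in 1 library kept it out of the members. CL495.Contig2_All and CL495.Contig4_All were present at 24 h almost in LmLC alone, with 0.25 and 0.67 FPKM in LmHC and 26.33 and 37.26 FPKM in LmLC.

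CL14296 held 4 switched-on contigs among 9. CL14296.Contig1_All had 35.41 FPKM in LmHC and 51.16 FPKM in LmLC at 24 h, and CL14296.Contig7_All had 39.87 and 37.43 FPKM. CL14296.Contig6_All and CL14296.Contig9_All had 31.23 and 14.7 FPKM in LmHC and 28.81 and 14.94 FPKM in LmLC. Apart from Contig1, the lines were nearly even. In all 3 clusters with 3 switched-on contigs, too, each member was within 2-fold between the lines.

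In CL10275 the members made up 95.5% of the cluster in LmHC and 89.8% in LmLC at 24 h. All 3 were higher in LmHC. CL10275.Contig5_All had 83.66 FPKM in LmHC and 44.25 FPKM in LmLC, CL10275.Contig1_All had 52.96 and 46.77 FPKM, and CL10275.Contig4_All had 52.99 and 40.62 FPKM. In CL9308, CL9308.Contig17_All had 30.45 FPKM in LmHC and 37.15 FPKM in LmLC, CL9308.Contig12_All had 39.42 and 27.25 FPKM, and CL9308.Contig13_All had 25.7 and 24.5 FPKM. In CL4715, CL4715.Contig1_All had 31.43 FPKM in LmHC and 29.25 FPKM in LmLC, CL4715.Contig4_All had 20.36 and 22.01 FPKM, and CL4715.Contig2_All had 16.23 and 11.34 FPKM. The line with the higher level changed from contig to contig in CL9308 and CL4715.

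Contigs of 1 cluster did not always lean the same way. In 8 of the 15 clusters with several switched-on contigs, at least 1 was higher in LmHC and at least 1 higher in LmLC. The widest spread was in CL3835, where Contig2 had a log2 ratio of -1.17 and Contig7 of 0.82. Summed over all contigs, 0 of the 43 clusters passed 2-fold toward LmHC and 2 passed it toward LmLC, where the shares among 4388 clusters with a contig of at least 10 FPKM in both 24 h libraries, now including 4 with a single contig, were 0.365% and 1.21%. The 2 were CL169, with 128 FPKM in LmHC and 284 FPKM in LmLC at 24 h, and CL8425.

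CL8425 has 2 contigs. Its switched-on contig, CL8425.Contig2_All, had 28.38 FPKM in LmHC and 30.49 FPKM in LmLC at 24 h. Its partner, CL8425.Contig1_All, had 36.77 FPKM in LmLC at 24 h and was listed at 0 in the other 3 libraries. The difference between the lines in this cluster thus lay in the partner and not in the member. Partners listed at 0 in a line at 24 h and at 10 FPKM or more in the other numbered 6 in 5 clusters, and in all 6 the line at 0 was LmHC. The same holds of most such contigs in the table: among all clustered contigs, 114 were listed at 0 in LmHC with 10 FPKM or more in LmLC at 24 h, and 3 the other way round. Another of them is CL302.Contig17_All, with 37.09 FPKM in LmLC at 24 h and 0 FPKM elsewhere.

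In a few clusters the switched-on contig appeared beside partners that were abundant at 0 h. The 6 clusters with the highest partner sums at 0 h were CL329, CL443, CL2155, CL1986, CL7497 and CL302. In CL2155 and CL1986 all partners with a mean of at least 1 FPKM were 2-fold higher at 24 h in both lines. By the mean log2 ratio over the lines, the largest differences in these clusters were those of CL2155.Contig3_All, with 42.34 FPKM at 24 h and 2.26 FPKM at 0 h in LmHC and 45.35 and 2.3 FPKM in LmLC, and of CL1986.Contig5_All, with 26 FPKM at 24 h and 1.3 FPKM at 0 h in LmHC and 22.58 and 1.78 FPKM in LmLC. The member of CL2155 held 4.45% of the cluster in LmHC and 2.59% in LmLC at 24 h. The 2 members of CL1986 held 6.64% in LmHC and 5.7% in LmLC.

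In CL302 some contigs were higher at 24 h and others were lower. Its members CL302.Contig3_All and CL302.Contig12_All had 58.44 and 13.36 FPKM in LmHC and 39.2 and 10.76 FPKM in LmLC at 24 h. CL302.Contig7_All had 104.78 FPKM at 24 h and 1.54 FPKM at 0 h in LmHC, and 95.53 FPKM at 24 h and 1.44 FPKM at 0 h in LmLC. CL302.Contig6_All went the other way, with 1.5 FPKM at 24 h and 14.02 FPKM at 0 h in LmHC, and 2.24 FPKM at 24 h and 14.69 FPKM at 0 h in LmLC. Contig6 was the highest contig of the cluster at 0 h and far below the leading contigs at 24 h.

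CL7497 was mixed as well. Its member CL7497.Contig5_All had 34.04 FPKM in LmHC and 17.1 FPKM in LmLC at 24 h, the highest of its 10 contigs. CL7497.Contig2_All had 6.55 FPKM at 24 h and 16.24 FPKM at 0 h in LmHC, and 3.22 FPKM at 24 h and 9.18 FPKM at 0 h in LmLC. CL7497.Contig8_All had 8.37 FPKM at 24 h and 0.44 FPKM at 0 h in LmHC, and 8.19 and 0.51 FPKM in LmLC. The partners' sum was thus within 2-fold in each line while single partners were past 2-fold in either direction.

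**Figure D5:**
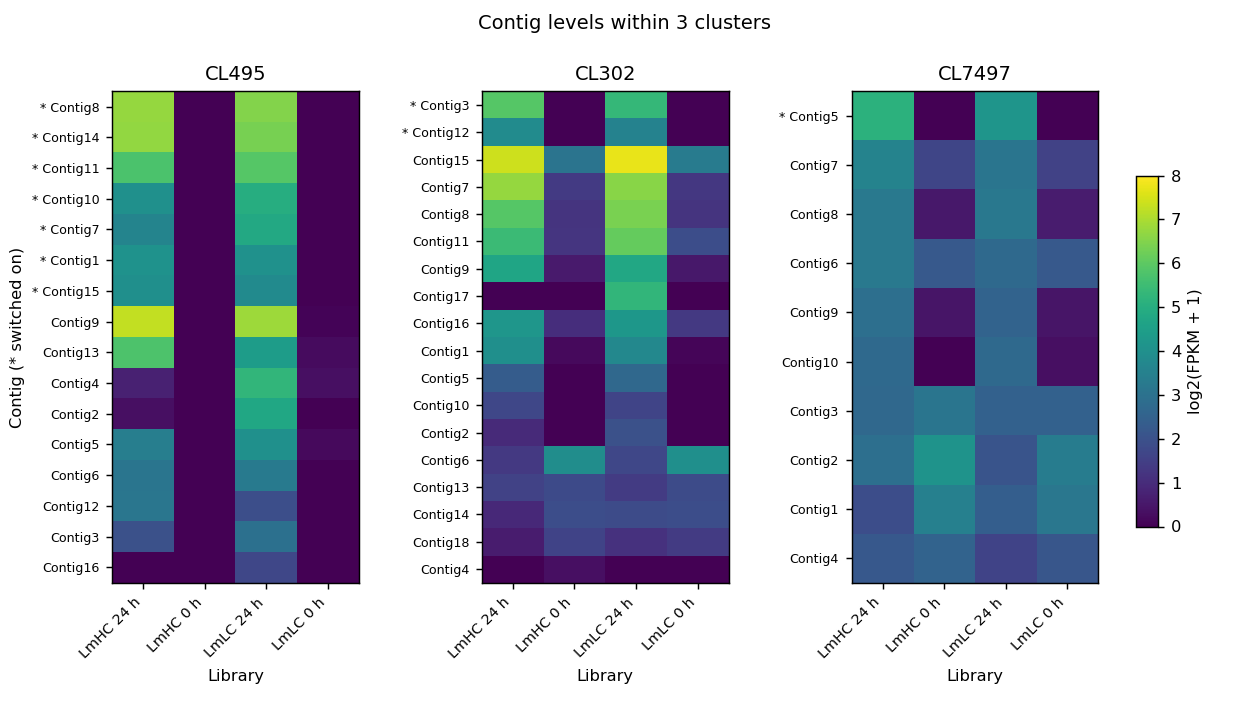
Levels as log2(FPKM + 1) of every contig (rows) of clusters CL495, CL302 and CL7497 in the 4 libraries (columns), with switched-on contigs at the top and marked by an asterisk. In CL495 both 0 h columns are dark throughout, with at most 0.64 FPKM in all, whereas CL302 and CL7497 hold contigs that are brighter at 0 h than at 24 h, such as Contig6 of CL302 and Contig2 of CL7497.

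In CL443 the member appeared while the partners together were lower or level. CL443.Contig2_All had 27.9 FPKM in LmHC and 13.97 FPKM in LmLC at 24 h. CL443.Contig4_All had 8.22 FPKM at 24 h and 54.75 FPKM at 0 h in LmHC, but 36.76 FPKM at 24 h and 54.78 FPKM at 0 h in LmLC, which is past 2-fold in LmHC and within it in LmLC. CL443.Contig9_All, the only partner 2-fold higher in both lines, had 10.47 FPKM at 24 h and 0.67 FPKM at 0 h in LmHC, and 5.4 and 0.78 FPKM in LmLC. The member and Contig4 leaned opposite ways between the lines at 24 h, the member toward LmHC and Contig4 toward LmLC.

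CL329, the largest of the 43 clusters with 27 contigs, was the most abundant at 0 h, where its partners summed to 273 FPKM in LmHC and 287 FPKM in LmLC. Their sums at 24 h were 822 FPKM in LmHC and 906 FPKM in LmLC. Its members held 3.3% of the cluster in LmHC and 4.17% in LmLC at 24 h. CL329.Contig3_All had 60.22 FPKM at 24 h and 0.01 FPKM at 0 h in LmHC, but 80.28 FPKM at 24 h and 22.34 FPKM at 0 h in LmLC. In this contig the lines were within 2-fold at 24 h and far apart at 0 h, which is unlike the members, whose 0 h values the rule made equal.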

How the data were processed

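The deposited table gives 1 FPKM value per contig and library, computed by the authors and rounded to 2 decimals, per the file headers and values. Bowtie2 2.2.5 and RSEM 1.2.8 were used, per the submitters' processing notes. The sources used here do not give the assembler, contig lengths or filters. From the table, the rule chose the contigs, clusters were read from contig names, and ratios were taken as log2 of (FPKM + 1) over (FPKM + 1), which understates changes of low contigs. A 2-fold limit replaced tests, since each group had 1 library. Relative depth came from contigs outside clusters with 0.3 to 1.2 FPKM in each library of a pair, as the most frequent log2 ratio within 1.5 of equality. Contigs were named by fixed rules of level, ratio, cluster membership and distance from the limit; Unigene31524_All, CL169, CL8425, CL9901, CL1203, CL3835, CL4030, partners listed at 0 in a line at 24 h and the CL495 partners were chosen after their values were seen. The members and lists were chosen with earlier results of these data known. The counting functions were checked on simulated data. Python 3.11.15, numpy 2.4.6, pandas 2.3.3 and matplotlib 3.10.9 were used.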

Additional observations from a re-analysis of the deposited data

How the results depend on the processing

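The counts were recomputed 30 times under other settings: 17 stayed within 1.5 times of those in the report and 13 left that range, and the cause was not tested. With a 24 h limit of 5 FPKM, 339 contigs were switched on, 18 at least 2-fold higher and 14 lower in LmHC than in LmLC. These lay in 141 clusters, and partners reached 1 FPKM at 0 h in 81 of them, against 22 of 43 in the report. A limit of 20 FPKM left 56 contigs, and allowing up to 0.1 FPKM at 0 h gave 231. With a pseudocount of 5, 2 members were 2-fold higher and 1 lower in LmHC, and 1 partner was lower at 24 h. With a pseudocount of 0.1, 6 members were lower in LmHC. Median-of-ratios scaling gave 140 members, 8 of them higher in LmHC, and 1 of 357 partners lower at 24 h. It moved the median log2 ratio of 24 h over 0 h of contigs with a mean of 1 FPKM or more. The move was from -0.20 to 0.02 in LmHC and from -0.14 to 0.08 in LmLC. Partners reached 5 FPKM at 0 h in each line in 13 of the 43 clusters. Partners 2-fold higher at 24 h in both lines numbered 305 of 357 with median-of-ratios scaling and 248 of 289 with equal column totals. Both scalings changed the set of partners. On the same 302 partners, a pseudocount of 0.1 gave 271. A pseudocount of 5 gave 195, the lowest share of all settings at 64.6%, against a background of 9.54%. With a mean of at least 5 FPKM the count was 184 of 204, and with no filter on the mean 266 of 354. Other limits of the rule also changed the set, with 706 of 942 at 5 FPKM and 135 of 150 at 20 FPKM. Allowing up to 0.1 FPKM at 0 h gave 412 of 483. No paired analysis was possible because each group had 1 library and no test was run. The unknown number of fragments limits what a listed 0 can mean.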
